A study of Mus musculus with 4 samples.

Results

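The carboxylesterase 1 family of the mouse (Ces1) was examined in lung RNA of Rab44-KO and wild-type mice. Its members were taken by gene name from the table of raw counts, which gave all 7 listed names (Ces1b, Ces1c, Ces1d, Ces1e, Ces1f, Ces1g and Ces1h) among 41079 genes. The family was chosen because the level of Ces1g was higher in the Rab44-KO lungs of these same data, so every Rab44-KO against WT value below describes the selection and is not independent evidence. The question that remained was which of the paralogs shared the rise of Ces1g.

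Lung RNA was sequenced from WT and Rab44-KO mice, either normal or OVA-induced, which makes 4 groups with 1 library each. All mice were adult, age-matched female littermates of C57BL/6 background, and the Rab44-KO mice carried a Rab44 gene disrupted by CRISPR/Cas9 in the whole animal rather than in 1 cell type. OVA-induced mice received 100 µg ovalbumin with alum on days 0, 7 and 14, then 100 µg ovalbumin in 50 µL through the nose for 4 days, and their lungs were collected on day 21. Normal mice are labelled as untreated, while a protocol text common to all samples also names a PBS challenge, and how many mice went into a library is not stated. With 1 library per group, no difference between groups has a replicate check and no p-value was computed. All intervals are exact 95% intervals that cover counting error only. The libraries held 18112901 to 19910236 counts and 24316 to 25003 genes with a count. Rab44 itself had 251 counts in WT and 1 in Rab44-KO normal lung, and 810 and 0 after OVA induction.

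Carboxylesterases are serine hydrolases of the endoplasmic reticulum that cleave ester and amide bonds in drugs, inhaled or ingested toxicants and lipids. Mice carry a tandem array of Ces1 genes where humans have a single expressed CES1 gene, and the mouse enzymes differ in tissue and substrate. Ces1d, also called triacylglycerol hydrolase, is abundant in liver, fat and lung, whereas Ces1g and Ces1f are best known from liver, where they act in the handling of triglyceride. Ces1e, or egasyn, holds β-glucuronidase in the endoplasmic reticulum, and Ces1c is the main esterase of mouse plasma. In the lung, carboxylesterases take part in the clearance of inhaled esters and in the activation of ester prodrugs.

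The members lay side by side on the minus strand of chromosome 8. In GENCODE M21 on GRCm38, the cluster of 8 protein-coding genes ran over 359.512 kb from chr8:93020214-93379725, with Ces1a at its low end, followed by Ces1b, Ces1c, Ces1d, Ces1e, Ces1f, Ces1g and Ces1h in alphabetical order. Ces1g occupied chr8:93302369-93337308, Ces1f chr8:93256236-93279747 and Ces1d chr8:93166068-93197838. Ces1a, which is not among the listed members, had 0 counts in all 4 libraries, which is set against a floor of 3 counts, or 0.154 to 0.164 counts per 1000000 library counts (CPM). The two-sided exact interval of a count of 0 reaches further, to 0.189 to 0.202 CPM. Their coding sequences, of 1662 to 1701 bases, shared 73.8% to 91.1% of aligned bases, with Ces1b and Ces1c the closest pair. Ces1g was closest to Ces1d, at 81.5%, and shared 74.6% with Ces1f.

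The coding stretch around the catalytic serine shows how alike and how separable the members are. Each line gives 66 bases across the junction of exons 5 and 6, read from the GENCODE M21 transcripts, and the capitals mark the 6 codons around the serine that attacks the ester bond.
Ces1g: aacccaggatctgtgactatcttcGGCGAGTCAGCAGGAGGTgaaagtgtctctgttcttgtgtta
Ces1f: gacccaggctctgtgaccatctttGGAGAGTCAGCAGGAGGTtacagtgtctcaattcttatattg
Ces1b: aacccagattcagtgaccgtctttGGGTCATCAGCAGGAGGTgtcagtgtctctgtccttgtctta
Ces1h: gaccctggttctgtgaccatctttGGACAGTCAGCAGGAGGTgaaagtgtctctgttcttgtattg
Ces1d: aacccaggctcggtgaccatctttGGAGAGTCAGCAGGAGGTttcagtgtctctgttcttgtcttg
Ces1e: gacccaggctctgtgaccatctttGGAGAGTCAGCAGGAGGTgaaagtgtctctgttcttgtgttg
Ces1c: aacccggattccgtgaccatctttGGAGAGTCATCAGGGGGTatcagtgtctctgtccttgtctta
Against Ces1g, the stretch differed at 6 bases in Ces1e, 9 in Ces1h, 10 in Ces1d, 12 in Ces1f and 14 each in Ces1b and Ces1c. Reads were 150 bases long, and 0 of the 150-base windows of any member transcript occurred in the transcript of another gene. At 75 bases, Ces1d, Ces1f and Ces1g had 0 shared windows, while 4.50% of Ces1b and 6.73% of Ces1c windows were shared, mostly with each other. Counts of Ces1b and Ces1c are therefore the least certain in their assignment, since the handling of reads with several matches is not given in the sources used here.

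Ces1d made up nearly all of the family's RNA. On the TPM scale, which is scaled by gene length and so allows genes to be compared, the level of Ces1d was 952 in WT and 1018 in Rab44-KO normal lung, and 527 and 708 after OVA induction. It took 95.3%, 90.0%, 96.5% and 90.2% of the family's counts in these libraries. The share of Ces1g was 1.08% (Clopper-Pearson interval 0.929% to 1.26%) in WT and 4.03% (3.73% to 4.33%) in Rab44-KO normal lung. After OVA induction it was 0.557% (0.420% to 0.724%) and 4.12% (3.76% to 4.50%), so that both Rab44-KO libraries lay above both WT libraries.

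The order of the other members differed with the genotype. In both WT libraries the TPM order was Ces1d, Ces1e, Ces1f and Ces1g, with levels of 17.3, 15.3 and 9.30 for the last 3 of them in normal and 8.87, 5.83 and 2.61 in OVA-induced lung. In both Rab44-KO libraries Ces1f and Ces1g stood above Ces1e, at 41.8 and 39.1 against 18.6 TPM in normal and at 27.9 and 27.8 against 12.2 TPM in OVA-induced lung. Ces1b and Ces1h stayed at or below 3.24 and 1.03 TPM, and Ces1c at or below 0.473 TPM. Without replicates, the neighbours Ces1f and Ces1g in the Rab44-KO libraries cannot be ordered.

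**Figure D1:**
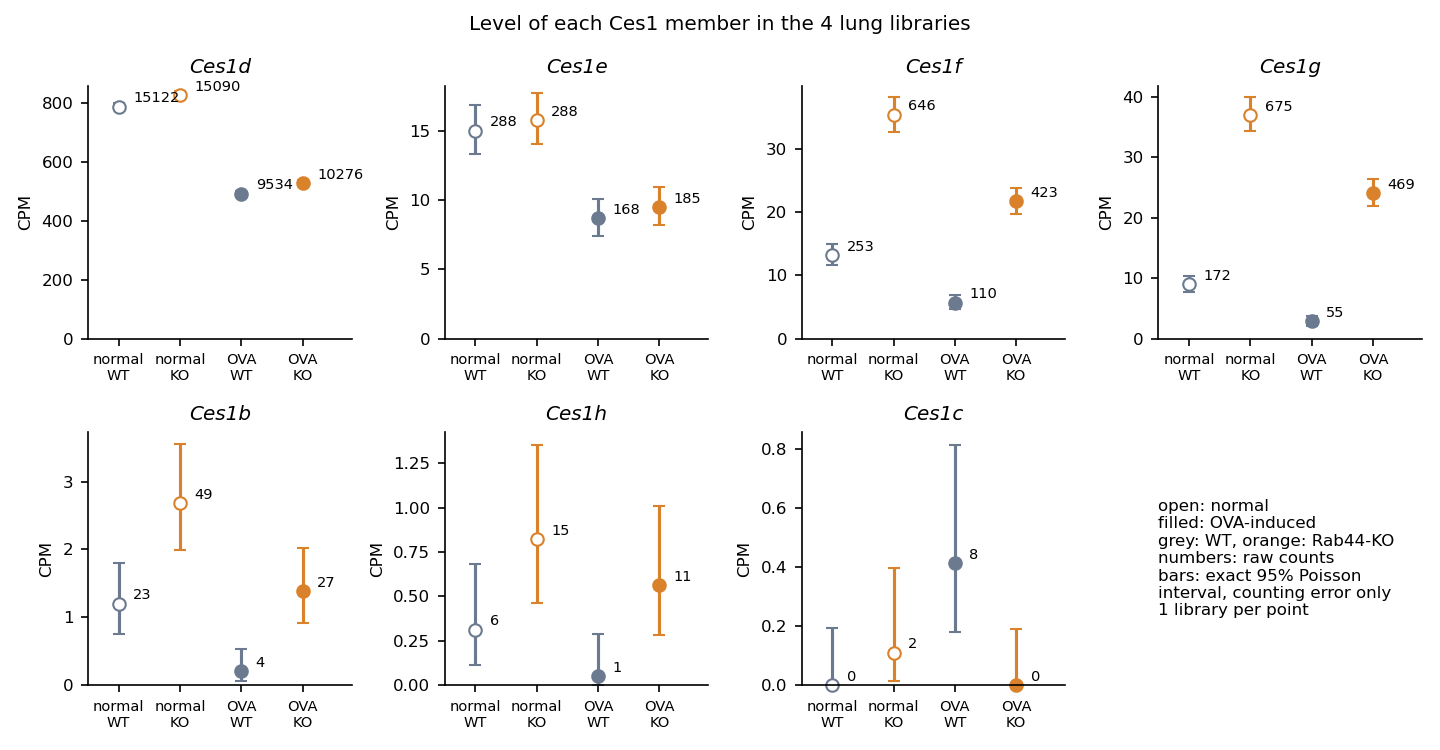
Level of each member in the 4 libraries, in CPM on a linear axis from 0, with the raw counts beside the points and exact 95% Poisson intervals as bars. For Ces1f, Ces1g, Ces1b and Ces1h both Rab44-KO points lie above both WT points, for Ces1d and Ces1e the normal points lie above the OVA-induced points, and Ces1c reached at most 8 counts.

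The first comparison asked which members differed between Rab44-KO and WT in normal lung. Ces1g, Ces1f, Ces1h and Ces1b were over 2-fold higher in Rab44-KO lung, and Ces1d and Ces1e were at nearly the same level in both. In whole lung, fewer cells of a type and less RNA per cell cannot be told apart. A gene was called when its log2 ratio of CPM (log2FC) passed 1 and the higher of both libraries held 10 counts or more, a minimum that 6 of the 7 members reached. Of these, 4 were called higher and 0 lower, where 2.77% of all 18718 genes tested were called higher and 2.0% lower. With the minimum raised to 100 counts, 2 of 4 members were called, Ces1f and Ces1g, against 0.334% of 13166 genes. These counts describe the selection, since Ces1g was chosen on the genotype difference. The median log2FC of the 6 members was 1.27, and that of all genes tested 0.00.

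Ces1g had 172 counts (8.96 CPM) in normal WT and 675 counts (37.0 CPM) in normal Rab44-KO lung, which was 4.13-fold (3.49 to 4.91). By log2FC it stood 6th of the 13166 genes with at least 100 counts. Ces1f, another lipid hydrolase best known from liver, went from 253 to 646 counts (13.2 to 35.4 CPM), at 2.69-fold (2.32 to 3.12), and stood 19th. The intervals of Ces1f and Ces1g did not overlap.

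Ces1b and Ces1h moved in the same direction on few counts. Ces1b had 23 counts in normal WT and 49 in normal Rab44-KO lung, or 2.24-fold (1.34 to 3.85). Ces1h had 6 and 15 counts, or 2.63-fold (0.964 to 8.27), an interval that includes no difference. Ces1c had 0 and 2 counts, both within the floor of 3 counts, and no fold was taken.

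Ces1d and Ces1e stood apart from these. Ces1d had 15122 counts in normal WT and 15090 in normal Rab44-KO lung, and its ratio of 1.05 (1.03 to 1.07) placed it 4283rd of 13166 genes. Ces1e had 288 counts in each library, for a ratio of 1.05 (0.890 to 1.24). Of the members called, Ces1f, Ces1g and Ces1h lie next to each other in the cluster, and Ces1b, on 23 and 49 counts, lies apart from them.

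The second comparison set Rab44-KO against WT after OVA induction, and the same 4 members were called. Of 6 members tested, 4 were called higher and 0 lower, against 8.40% of 19259 genes called higher and 7.34% called lower. With at least 100 counts, Ces1f and Ces1g were called among 4 members, against 3.64% of 13704 genes. The median log2FC was 2.32 for the 6 members and -0.02 for all genes tested. As in normal lung, the genotype difference chose the members and these counts are a description.

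In OVA-induced lung Ces1g had 55 counts (2.84 CPM) in WT and 469 (24.1 CPM) in Rab44-KO mice, which was 8.47-fold (6.40 to 11.4). It ranked 8th of 13704 genes. Ces1f had 110 and 423 counts (5.68 and 21.7 CPM), for 3.82-fold (3.09 to 4.76) and rank 50. Ces1g again exceeded Ces1f by more than the counting error.

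In the same libraries Ces1b had 4 counts in WT and 27 in Rab44-KO lung, or 6.71-fold (2.34 to 26.4). Ces1h had 1 and 11 counts, for a ratio of 10.9 with an interval from 1.59 to 470. The plasma esterase Ces1c went the other way on very few counts, with 8 in WT and 0 in Rab44-KO lung, and did not reach the minimum of 10. Ces1d (9534 and 10276 counts) and Ces1e (168 and 185 counts) had ratios of 1.07 (1.04 to 1.10) and 1.09 (0.883 to 1.36).

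**Figure D2:**
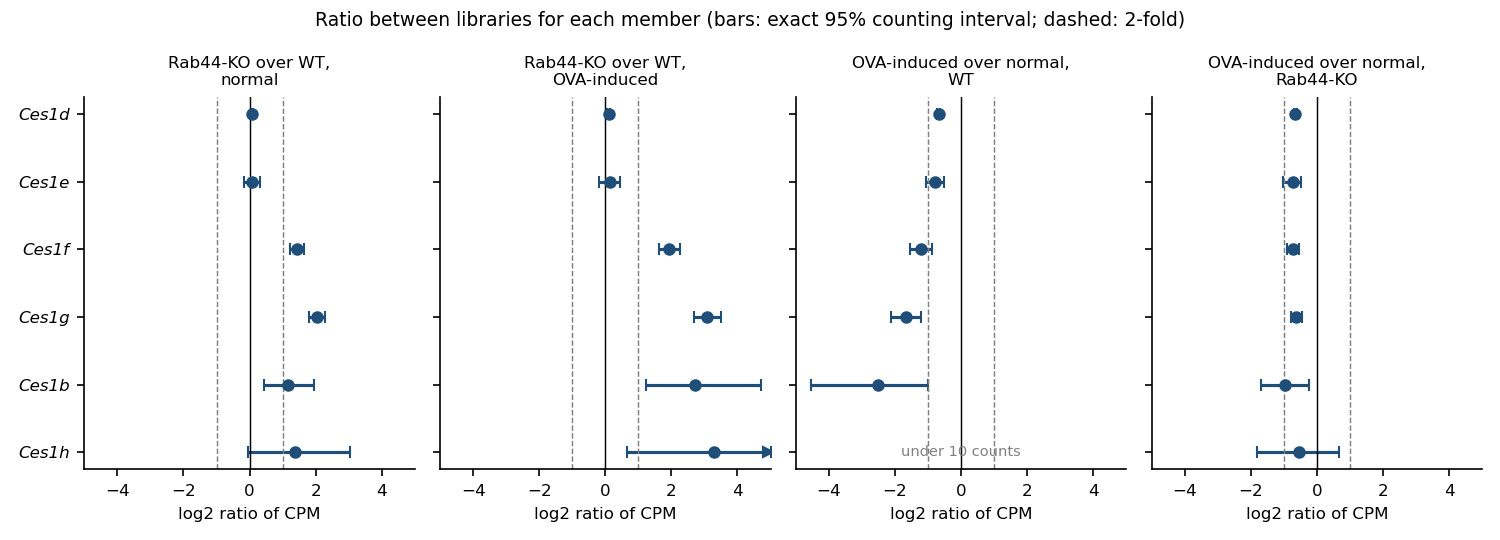
Log2 ratio of CPM for the members that reached the count minimum, in the 4 comparisons, with exact 95% counting intervals as bars, a solid line at no difference and dashed lines at 2-fold. Ces1f, Ces1g, Ces1b and Ces1h lie past the upper dashed line in both Rab44-KO over WT panels while Ces1d and Ces1e lie near 0. The bar of Ces1h in the OVA-induced panel runs past the axis to 8.88 (arrow).

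To say how far each member shared the rise, its Rab44-KO over WT ratio was divided by that of Ces1g, which removes the library scaling. The ratio of Ces1f was 0.651 (0.518 to 0.817) of that of Ces1g in normal and 0.451 (0.312 to 0.647) in OVA-induced lung. Ces1b came to 0.543 (0.315 to 0.962) and 0.792 (0.262 to 3.23), and Ces1h to 0.637 (0.229 to 2.04) and 1.29 (0.181 to 56.5). The rise of Ces1f was thus smaller than that of Ces1g in both conditions, whereas the counts of Ces1h could not tell it from that of Ces1g. Ces1d came to 0.254 (0.213 to 0.302) and 0.126 (0.0937 to 0.168), and Ces1e to 0.255 and 0.129. Against each other, Ces1e and Ces1d had ratios that did not differ beyond counting error, with intervals of 0.847 to 1.19 in normal and 0.823 to 1.27 in OVA-induced lung.

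The genotype ratio was larger after OVA induction for 2 members. The ratio of Ces1g in OVA-induced lung was 2.05 (1.47 to 2.90) times that in normal lung, and that of Ces1f 1.42 (1.09 to 1.85) times. For Ces1b the value was 2.96 (0.880 to 13.0) and for Ces1h 4.00 (0.393 to 208), so that neither was distinguishable from 1. Ces1d and Ces1e gave 1.02 (0.984 to 1.06) and 1.04 (0.791 to 1.37). With 1 library per group, none of these has been tested against the spread between mice.

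The third comparison, OVA-induced against normal lung in WT mice, asked how the members respond to allergic inflammation when Rab44 is present. All 5 members with enough counts were lower after OVA induction, and 3 of them, Ces1b, Ces1g and Ces1f, by over 2-fold, against 5.20% of 19023 genes called lower. Their median log2FC was -1.21, and that of all genes 0.00. Ces1g went from 172 to 55 counts (8.96 to 2.84 CPM), a ratio of 0.317 (0.230 to 0.432), and was 25th from the bottom of 13575 genes with at least 100 counts. Ces1f went from 253 to 110 counts (13.2 to 5.68 CPM), at 0.431 (0.341 to 0.541), and Ces1b from 23 to 4 counts, at 0.172 (0.0433 to 0.505). The other 2 members had too few counts to be called, and Ces1h had 6 and 1 counts while Ces1c went the other way, from 0 to 8 counts.

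Ces1d and Ces1e were lower by less. Ces1d, the triacylglycerol hydrolase, went from 15122 counts (788 CPM) in normal WT to 9534 counts (492 CPM) in OVA-induced WT lung, a ratio of 0.625 (0.609 to 0.641). Ces1e went from 288 to 168 counts, a ratio of 0.578 (0.475 to 0.702). These 2 members had 1.97 (1.45 to 2.73) and 1.82 (1.26 to 2.66) times the OVA ratio of Ces1g in WT lung.

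The fourth comparison made the same contrast in Rab44-KO mice, where 0 of 6 members were over 2-fold lower, against 3.85% of 19073 genes. All 6 nevertheless had ratios below 1. Ces1g went from 675 to 469 counts (37.0 to 24.1 CPM), a ratio of 0.650 (0.577 to 0.733), Ces1f from 646 to 423 counts, at 0.613 (0.541 to 0.694), and Ces1d from 15090 to 10276 counts, at 0.637 (0.622 to 0.654). Ces1e stood at 0.601 (0.497 to 0.726), Ces1b at 0.516 (0.310 to 0.842) and Ces1h at 0.686 (0.285 to 1.60). In this contrast the ratio of no member differed from that of Ces1g beyond counting error, with Ces1d at 0.980 (0.867 to 1.11) of it and Ces1f at 0.942 (0.792 to 1.12). The WT and Rab44-KO contrasts use the same 4 libraries as the genotype contrasts, so the larger fall in WT and the larger genotype ratio after OVA are one difference seen from both sides.

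Summed over the 7 members, the family had 15864 counts in WT and 16765 in Rab44-KO normal lung, and 9880 and 11391 after OVA induction. The sum differed little between genotypes, at 1.11-fold (1.09 to 1.14) in normal and 1.15-fold (1.11 to 1.18) in OVA-induced lung, because Ces1d carries it. Without Ces1d the sum was 2.37-fold (2.18 to 2.59) and 3.20-fold (2.83 to 3.62) higher in Rab44-KO lung. The 4 members that were called summed to 23.6 CPM in WT and 75.9 CPM in Rab44-KO normal lung, and to 8.78 and 47.7 CPM after OVA induction. After OVA induction the family sum was 0.617 (0.602 to 0.633) of normal in WT and 0.636 (0.621 to 0.651) in Rab44-KO lung.

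The nearest genes on each side of the cluster with at least 10 counts in any library were read to see whether they moved with it. They are not all close by. Counted from the start of the 360 kb cluster, their starts ran from -663 kb (Irx5) to -60.1 kb (Slc6a2) and from 790 kb (Gnao1) to 1048 kb (Bbs2). In normal lung, none of the 8 flanking genes read with enough counts (Irx5, Mmp2, Lpcat2 and Slc6a2 on the low side and Gnao1, Nudt21, Ogfod1 and Bbs2 on the high side) was over 2-fold different between Rab44-KO and WT, with log2FC from -0.37 to 0.30. In OVA-induced lung, Slc6a2, the noradrenaline transporter gene, had a log2FC of 1.06 (0.96 to 1.16) and Mmp2, a gelatinase gene, one of -1.20 (-1.29 to -1.11). The other flanking genes stayed within 2-fold. Ces1d and Ces1e, inside the cluster, had log2FC of 0.07 in normal lung and 0.10 and 0.13 in OVA-induced lung.

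**Figure D3:**
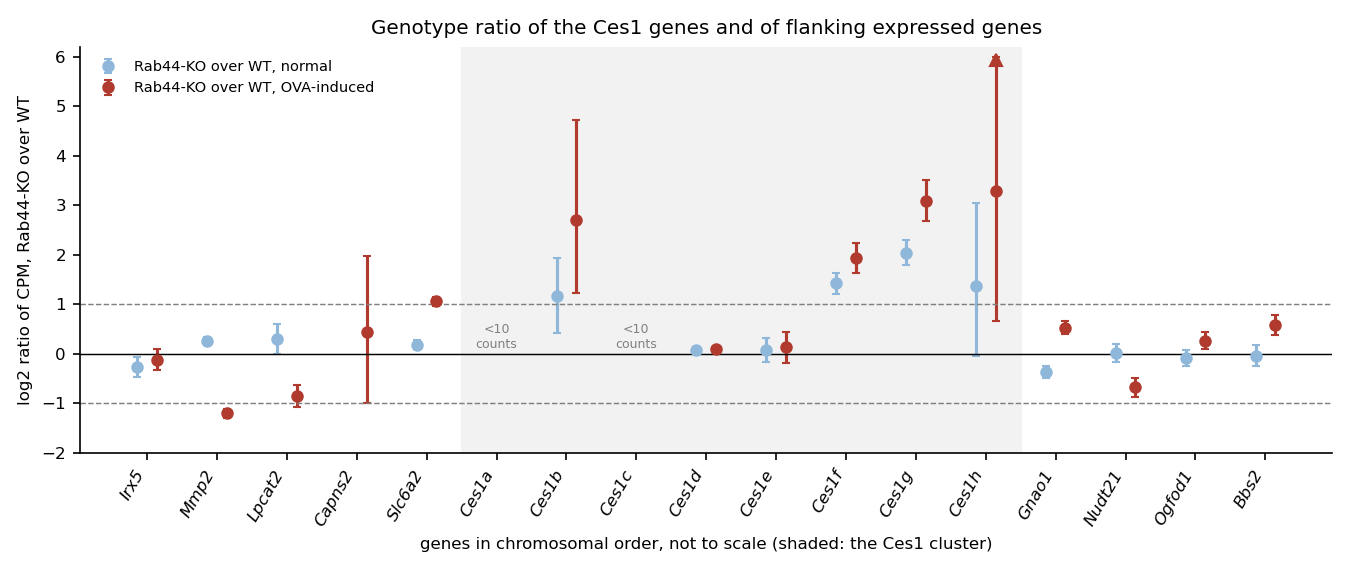
Log2 ratio of CPM, Rab44-KO over WT, for the genes of the Ces1 cluster (shaded) and flanking expressed genes, in chromosomal order and not to scale, with exact 95% counting intervals. Within the shaded cluster Ces1b, Ces1f, Ces1g and Ces1h lie above 1 in both conditions, and Ces1d and Ces1e near 0. The upper bar of Ces1h is drawn to the axis limit (arrow) and ends at 8.88, and Ces1a and Ces1c had under 10 counts.

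Since some members moved together and others did not, the sequences upstream of their start sites were compared. RefSeq windows of 300 bases (250 before and 50 after the start site, GRCm38.p6) were held for 5 of the 7 members, and Ces1d and Ces1f had none. The 251 bases up to and including the start base are shown, minus strand and 5′ to 3′, for the 3 of these that were higher in Rab44-KO lung, followed by Ces1e and Ces1c. The RefSeq start sites of Ces1g and Ces1h are not those of the GENCODE gene ends, and Ces1b has a second RefSeq start whose window is not shown. Capitals mark the letters TTATGTAA, the kind of motif bound by PAR bZIP factors such as DBP, which was picked after the sequences had been seen.
Ces1g (chr8:93337209-93337459): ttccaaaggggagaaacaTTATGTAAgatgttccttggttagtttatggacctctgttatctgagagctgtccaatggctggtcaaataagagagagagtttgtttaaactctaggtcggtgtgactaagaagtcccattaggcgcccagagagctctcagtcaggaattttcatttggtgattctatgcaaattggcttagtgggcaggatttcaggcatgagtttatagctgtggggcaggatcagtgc
Ces1b (chr8:93080017-93080267): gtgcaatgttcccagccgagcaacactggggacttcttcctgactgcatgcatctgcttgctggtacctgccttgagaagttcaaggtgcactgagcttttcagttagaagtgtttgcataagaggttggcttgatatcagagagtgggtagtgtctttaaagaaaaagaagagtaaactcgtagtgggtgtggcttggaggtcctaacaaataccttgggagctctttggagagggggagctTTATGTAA
Ces1h (chr8:93379777-93380027): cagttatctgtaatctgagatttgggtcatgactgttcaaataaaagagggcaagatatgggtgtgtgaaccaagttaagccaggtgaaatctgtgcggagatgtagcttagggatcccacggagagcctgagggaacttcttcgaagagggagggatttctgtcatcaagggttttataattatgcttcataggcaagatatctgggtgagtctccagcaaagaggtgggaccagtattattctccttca
Ces1e (chr8:93229619-93229869): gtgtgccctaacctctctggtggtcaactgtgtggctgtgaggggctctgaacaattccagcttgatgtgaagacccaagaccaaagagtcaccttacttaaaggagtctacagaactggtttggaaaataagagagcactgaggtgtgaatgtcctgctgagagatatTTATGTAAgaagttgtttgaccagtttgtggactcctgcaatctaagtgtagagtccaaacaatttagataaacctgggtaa
Ces1c (chr8:93131283-93131533): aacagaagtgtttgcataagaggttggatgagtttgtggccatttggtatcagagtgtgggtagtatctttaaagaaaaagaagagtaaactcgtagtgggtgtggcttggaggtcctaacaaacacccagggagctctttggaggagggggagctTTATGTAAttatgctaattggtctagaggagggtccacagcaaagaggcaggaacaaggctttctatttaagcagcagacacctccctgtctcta
The motif began 232 bases before the start site in Ces1g, 7 bases before in Ces1b (84 before its other RefSeq start), 94 bases before in Ces1c and 81 bases before in Ces1e, and was also present in Ces1a. It was not in the Ces1h window, and 0.938% of 32851 promoter windows held it, on either strand. So it was found both in members that were higher in Rab44-KO lung and in Ces1e, which was not. The core letters of 2 response elements, GCGTG of the aryl hydrocarbon receptor (AHR) and TGACNNNGC of NRF2, were found in 0 of the Ces1 windows, while 32.4% and 12.4% of all windows held them. Neither motif overlaps TTATGTAA in its letters, and a window without a motif says nothing about sites elsewhere.

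Over the full windows of 300 bases, of which 251 are printed above, Ces1b and Ces1c were the most alike pair as well. Of the aligned bases, 188 of 197 (95.4%) were identical for the Ces1b start site shown above and 255 of 273 (93.4%) for its other start site. Ces1b and Ces1g shared 58.6% and 60.7%. Their counts nevertheless went in opposite directions in OVA-induced lung, with 4 in WT and 27 in Rab44-KO for Ces1b and 8 in WT and 0 in Rab44-KO for Ces1c. With 75-base windows shared between these 2 transcripts, the split of reads between them was not tested.

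Among the other carboxylesterases with at least 10 counts, none was over 2-fold higher in Rab44-KO lung. Ces2 enzymes are best known from intestine and liver. In the normal comparison 0 of 3 tested were called, and in the OVA-induced comparison 0 of 4 were called higher and 2 lower (Ces2c and Ces2e), where 7.34% of all genes were lower. For so few genes, 0 called higher is near what the shares over all genes give. Ces2g had 628 counts in WT and 744 in Rab44-KO normal lung, and 472 and 468 after OVA induction, with genotype ratios of 1.25 (1.12 to 1.39) and 0.985 (0.865 to 1.12).

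In the same order of libraries, Ces2b had 53, 89, 48 and 47 counts and Ces2e 75, 88, 65 and 29. Ces2c had 2, 2, 36 and 1 counts, so that it was seen in OVA-induced WT lung and hardly elsewhere. Their genotype ratios in OVA-induced lung were 0.790 (0.667 to 0.936) times those in normal lung for Ces2g, 0.552 (0.314 to 0.965) for Ces2b and 0.360 (0.202 to 0.633) for Ces2e, below 1 where those of Ces1g and Ces1f were above it. Ces2a, Ces2f, Ces2h and Ces3a had 0 counts throughout, and Ces3b, Ces4a and Ces5a at most 2.

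Genes that share substrates, partners or known regulators with the family were read from lists that were chosen with results of these data known. Over all genes tested, 2.77% were called higher and 2.0% lower in normal lung, and 8.40% and 7.34% in OVA-induced lung, and lists with counts near these shares do not stand out. Neutral lipid hydrolases and droplet proteins were mostly within 2-fold, with 1 of 27 higher (Aadac, an arylacetamide deacetylase) and 0 lower in normal lung, and 2 of 28 higher (Lipe and Plin4) and 3 lower (Lipa, Lipc and Aadac) in OVA-induced lung. Lipe, the hormone-sensitive lipase, had log2FC of 0.55 and 1.29, Lipa, the lysosomal acid lipase, 0.00 and -1.01, and the droplet protein gene Plin5 0.81 and 0.68. Of esterases and their partners, 1 of 11 was higher in normal lung (again Aadac), and 1 of 12 was higher (Pon1) and 2 lower (Serpina1b and Aadac) in OVA-induced lung. Pon1, a lipoprotein-bound esterase, had log2FC of 0.77 and 1.77, Bche, the plasma cholinesterase, -0.22 and -0.32, and Esd, esterase D, 0.13 and -0.83.

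Targets of AHR, the receptor for dioxin-like ligands, were the list with the largest share of higher members. In normal lung 6 of 11 were called higher and 0 lower, with a median log2FC of 1.06, and in OVA-induced lung 8 of 11 and 0, with a median of 1.28. Cyp1a1, a cytochrome P450 induced through AHR, had 67 counts in WT and 3418 in Rab44-KO normal lung, and 30 and 212 after OVA induction, for log2FC of 5.74 (5.40 to 6.12) and 2.81 (2.26 to 3.41). Aldh3a1, an aldehyde dehydrogenase, had log2FC of 1.15 and 1.42, and the glucuronosyltransferase gene Ugt1a6b 1.95 and 3.06. Whether AHR activity bears on the Ces1 members was not tested.

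Targets of NRF2, a regulator of antioxidant genes, were called higher for 2 of 20 in normal and 1 of 19 in OVA-induced lung, where 2 were lower. Nqo1, a quinone reductase, had log2FC of 1.62 and 1.08, the cystine transporter gene Slc7a11 2.15 and -1.17, and Hmox1, heme oxygenase, 0.41 and -1.21. Nqo1 also stands in the AHR list, so its call counts in both lists. Targets of CAR and PXR, receptors that raise drug-metabolism genes in liver, were called for 0 of 7 in normal and 1 of 7 in OVA-induced lung, and the transporter genes Abcb1a and Abcc3 had log2FC of 0.27 and 1.08, and 0.30 and 0.96. The list of regulators themselves, from AHR to the glucocorticoid receptor, had 0 of 15 higher and 1 lower (Nr1i2, which encodes PXR) in normal lung and 0 of 16 called in OVA-induced lung. Among them Pparg had log2FC of 0.44 and -0.71, Cebpa 0.12 and -0.54, and Nr1i3, which encodes CAR, 0.41 and -0.29.

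Targets of PPARA, the fatty acid receptor, were higher for 1 of 12 in normal lung and for 5 of 12, with 1 lower, in OVA-induced lung. Glucocorticoid-responsive genes were higher for 1 of 13 in normal lung and for 3 of 13, with 2 lower, in OVA-induced lung. Pdk4, a kinase that restrains glucose oxidation, had log2FC of 0.50 and 2.18, and Angptl4, an inhibitor of lipoprotein lipase, 1.20 and 1.01, and both genes stand in both lists. Fabp1, the liver fatty acid binding protein, had 0.07 and 1.89, Dusp1, a phosphatase of MAP kinases, 0.91 and 1.76, and Lcn2, lipocalin 2, 0.54 and -1.88.

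Lists of cell type markers were read beside the members, since whole lung holds many cell types. The adipocyte list (10 of 10 genes in the table) summed to 278 CPM in WT and 326 in Rab44-KO normal lung, and to 289 and 356 after OVA induction, or 1.17-fold and 1.23-fold higher in Rab44-KO, with 7 of 10 and 8 of 9 tested genes above WT. Its defining genes Adipoq (92, 159, 25 and 59 counts) and Plin1 (62, 122, 18 and 35 counts) were higher in Rab44-KO and lower after OVA, as Ces1g was, while Cidec, Lep and Retn were lower in Rab44-KO normal lung (log2FC -0.16, -0.57 and -0.15) and Fabp4 was lower in Rab44-KO lung after OVA (-1.05). In WT lung 7 of the 10 genes were lower after OVA, with log2FC from -0.99 (Cidec) to -3.14 (Lep) and with Cfd at -1.75 and Pck1 at -1.53, and Fabp4, Lipe and Adipor2 were higher. Without its most abundant gene Adipor2, the adipocyte sum was 114, 159, 101 and 161 CPM, or 1.40-fold and 1.59-fold higher in Rab44-KO lung. The club cell list, which marks bronchiolar secretory cells, summed to 28252, 29115, 19516 and 23059 CPM, or 1.03-fold and 1.18-fold, and 1.25-fold and 1.61-fold without its most abundant gene Scgb1a1. The sum without Scgb1a1 was 5291, 6604, 2970 and 4771 CPM. It was highest in Rab44-KO normal and lowest in OVA-induced WT lung, as the called members were. The full sums of the club cell, heart muscle, hepatocyte and capillary endothelium lists had the same highest and lowest libraries. The last of these was 3332, 3410, 2452 and 3380 CPM. Of the 10 club cell genes, 8 were above WT in each genotype comparison. Over 2-fold higher were 0 in normal and 1 in OVA-induced lung. This 1 gene was Bpifa1, a secreted airway protein gene with 3863, 5575, 242 and 1892 counts. It was also the only 1 over 2-fold lower with OVA in WT lung.

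The heart muscle list summed to 767 CPM in WT and 848 in Rab44-KO normal lung, and to 337 and 758 after OVA induction, which was 2.25-fold higher in Rab44-KO lung after OVA, and 1.73-fold without its most abundant gene Myh6. The alveolar macrophage list summed to 753, 694, 5878 and 1247 CPM, of which the chitinase-like gene Chil3 alone made 5248 CPM in OVA-induced WT lung. Without Chil3 the list summed to 398, 385, 630 and 331 CPM, and its Rab44-KO over WT ratio after OVA was 0.525 in place of 0.212. The alveolar type 2 list summed to 21908, 22221, 31949 and 19364 CPM, also highest in the OVA-induced WT library. The hepatocyte list summed to 32.3, 40.7, 28.0 and 29.6 CPM, and without its most abundant gene Cyp2e1 to 12.3 CPM in WT and 11.1 CPM in Rab44-KO normal lung, with 1.62-fold and 1.77-fold higher sums after OVA, so that its highest level in Rab44-KO normal lung rested on that gene. Cyp2e1, with 384, 540, 154 and 193 counts, had the library order normal Rab44-KO, normal WT, OVA-induced Rab44-KO, OVA-induced WT, while Alb, with 10, 12, 90 and 54 counts, and Apoa1, with 0, 0, 7 and 10 counts, were higher after OVA. The sums without the most abundant gene were added after seeing the data. Over all 15 full lists the Rab44-KO over WT ratio of the sum ran from 0.876 (ciliated cells) to 1.39 (brown adipocytes) in normal and from 0.212 (alveolar macrophages) to 2.25 (heart muscle) in OVA-induced lung. Without the most abundant gene of each list, the ratio ran from 0.838 (ciliated cells) to 1.66 (mesothelium) in normal and from 0.204 (eosinophils) to 1.73 (heart muscle) in OVA-induced lung. In the mesothelium list, log2FC in normal lung ran from -0.15 (Krt19) to 1.67 (Lrrn4), with 3 of 7 genes over 2-fold higher. In OVA-induced lung 4 of the 7 genes were above WT and 1 was over 2-fold higher, while Msln and Upk3b had -0.23 and -0.10. In the kidney and intestine list, Apoa4, Sis and Alpi had 0 counts throughout, but Lrp2 was expressed in all libraries. The full sum was 1.17-fold higher in Rab44-KO normal lung. After OVA it was 77.8 CPM in WT and 104 CPM in Rab44-KO lung, or 1.33-fold. Nearly all of it was Lrp2, with 75.7 and 102 CPM in these OVA-induced libraries. Without Lrp2 the list summed to 0.990, 1.10, 2.01 and 1.33 CPM. The 4 called members had ratios of 3.21 (2.88 to 3.58) in normal and 5.43 (4.61 to 6.44) in OVA-induced lung, but they were chosen for that ratio, so it cannot be read against the lists, and the part of cell content was not tested.

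**Figure D4:**
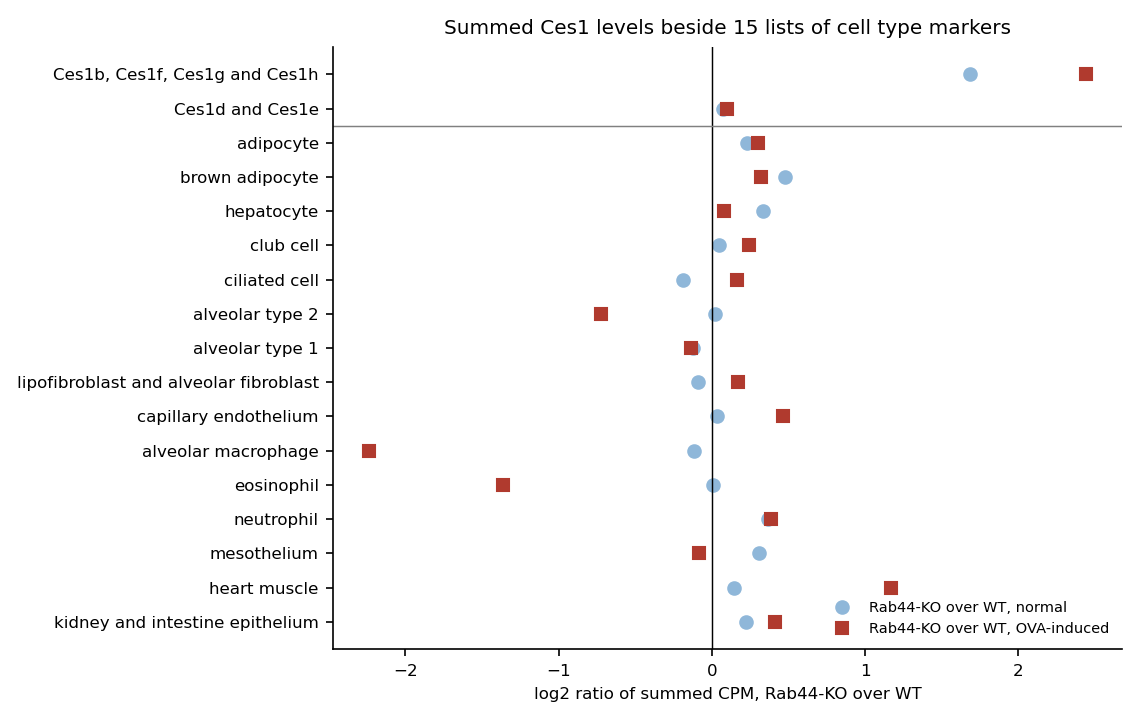
Log2 ratio of summed CPM, Rab44-KO over WT, for the 4 called members, for Ces1d and Ces1e, and for 15 lists of cell type markers, with circles for normal and squares for OVA-induced lung (1 library per group, no error bars). The 4 called members lie at 1.68 and 2.44 and were chosen for this ratio. In OVA-induced lung the heart muscle list is the highest of the full lists and the alveolar macrophage list the lowest, the latter through Chil3.

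Genes whose pattern over the 4 libraries was most like that of Ces1g were found among 13895 other genes with at least 100 counts in some library, by the Euclidean distance between log2 CPM centred on each gene's own mean. The members Ces1h, Ces1b and Ces1f stood at distances of 0.612, 0.898 and 0.939. Ces1h and Ces1b, with at most 15 and 49 counts, would not have entered the set of compared genes, and genes of such low counts were not searched. The nearest genes outside the family were Fos at 1.07, an immediate-early transcription factor, Sult1d1 at 1.20, a sulfotransferase, Tbx20 at 1.24, a transcription factor of the heart, Xlr3b at 1.29, an X-linked gene, and Pon1 at 1.32. Ces1d and Ces1e stood at 2.57 and 2.54, with 2428 and 2083 genes nearer to Ces1g than they were. With 4 libraries, many genes can have a like pattern, and the distance is a description.

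Fos was also the gene nearest to Ces1f, at 0.242, followed by Pon1, the immediate-early gene Egr1, Nqo1 and Tsku. From Ces1f, 27 of the 13895 genes were nearer than Ces1g, 36 nearer than Ces1b and 89 nearer than Ces1h. Fos had 1360 counts in WT and 3226 in Rab44-KO normal lung, and 533 and 1802 after OVA induction. The genes nearest to Ces1d were Amotl2, Cadm1, Slc27a6, Zfp111 and Ephx1, at distances from 0.0211 to 0.0443, and 24 genes were nearer to it than Ces1e was.

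**Figure D5:**
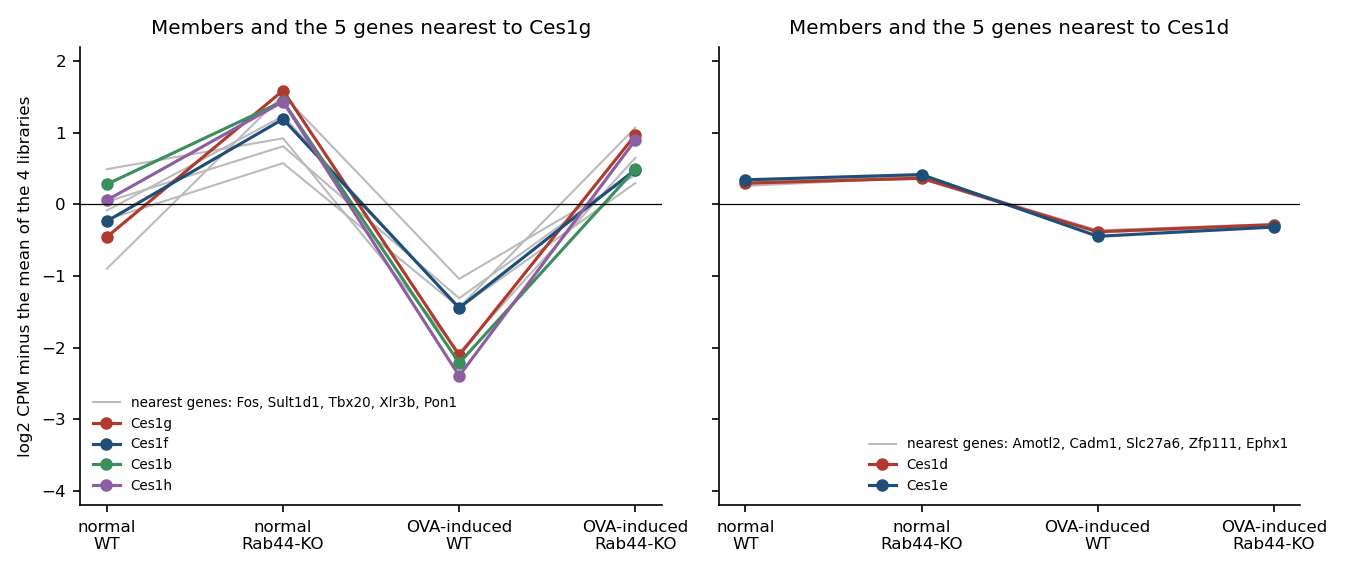
Log2 CPM minus its mean over the 4 libraries for the members (coloured) and for the 5 genes outside the family nearest to Ces1g (left) or Ces1d (right) in grey, with lines drawn only to guide the eye between libraries. Ces1g, Ces1f, Ces1b and Ces1h are highest in normal Rab44-KO and lowest in OVA-induced WT lung, while Ces1d and Ces1e differ between normal and OVA-induced lung and hardly with genotype.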

How the data were processed

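Lung RNA was read as 4 libraries of 150-bp paired-end reads made with a directional kit. Per the labels and the study's methods, the authors aligned reads to GRCm38 with HISAT2 and counted them per gene with featureCounts. Tool versions, the strand setting and the handling of reads with several matches are not given in the sources used here. The authors deposited raw counts, which are whole numbers, and TPM, which sum to 1000000 per library. The study's differential expression used DESeq2.

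The members and lists were chosen with earlier results of these data known. Counts were scaled to CPM by TMM over the 4 libraries (edgeR 4.0.16, R 4.3.3; factors 0.973 to 1.02), and the log2FC took a prior count of 0.125. Genes needed at least 10 counts in the higher library, and over 2-fold was called. Ratios carry exact Clopper-Pearson intervals, CPM exact Poisson intervals, and ratios of ratios exact conditional intervals, all at 95% (scipy 1.17.1, numpy 2.4.6, pandas 2.3.3, Python 3.11.15). PCR copies are not independent molecules, so intervals cover counting error only. The floor for 0 counts was 3 counts. An additive fit of genotype and OVA over the 4 libraries, with 1 residual degree of freedom, was not run. The ratio, its interval and the 2-fold call were tested on simulated Poisson counts, for genes with over 100 expected counts. Lower counts, ratios of ratios and the spread between mice were not covered.

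Named genes were the 7 members, other carboxylesterases with at least 10 counts, the 2 largest absolute log2FC with at least 50 counts per list and genotype comparison, the 5 nearest genes in pattern and the 5 flanking genes per side, of which 1 is not reported here. Other genes named are markers, genes at 0 or in shares, chosen after their values were seen. The 9 gene lists and 15 marker lists were counted without a set test. Table start positions are not those of GRCm38, so positions are from GENCODE M21, RefSeq windows are GRCm38.p6, and nothing was converted. Identity came from global alignments of coding sequences in Biopython 1.88, protein sequences were not used here, and figures from matplotlib 3.10.9. Alternatives were DESeq2 1.42.0 size factors, total counts, TMM on the 2 libraries compared, a prior count of 2, TPM with a pseudocount of 0.1, thinned counts (seed 44), count minimums of 1 and 50, and intervals wholly beyond 2-fold.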

Additional observations from a re-analysis of the deposited data

How the results depend on the processing

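Of 138 member log2FC values under 6 alternatives of scaling, prior count, unit and thinning, 132 stayed inside the main counting interval, 6 moved outside it and 0 reversed. All 6 belonged to Ces1d or Ces1e under TPM or total counts, and their ratios stayed within 2-fold. With TPM, the median of all genes tested moved by 0.32 (log2) in the OVA-induced genotype comparison, by -0.17 in the WT and by 0.12 in the Rab44-KO OVA comparison, so that Ces1d at 0.43 and Ces1e at 0.45 lay near the shifted median of 0.29 in the first of these. Relative to Ces1g, no scaling enters.

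Counts of called members depended on the rule. With at least 50 counts, 2 of 4 members (Ces1f and Ces1g) were called higher in each genotype comparison, against 0.505% of all genes in normal and 4.90% in OVA-induced lung. With intervals wholly beyond 2-fold, 2 (Ces1f and Ces1g) were called in normal and 3 (also Ces1b) in OVA-induced lung, against 0.272% and 2.14% of all genes, and 1 (Ces1g) was called lower with OVA in WT, against 1.05%. With a minimum of 1 count, 1 member (Ces1c) was called lower with OVA in Rab44-KO lung, 5 (also Ces1c) higher in normal Rab44-KO lung and 4 (also Ces1h) lower with OVA in WT, each of 7 and against 11.8%, 11.7% and 12.6% of all genes, so that the first is near the background.

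The log2 ratio of the family sum, 0.15 in normal and 0.20 in OVA-induced lung between genotypes and -0.70 in WT and -0.65 in Rab44-KO with OVA, moved without Ces1d to 1.25, 1.68 and -1.11 in the first 3. Without Ces1g it was 0.11 and 0.14 between genotypes. Summed TPM gave 0.51 in the OVA-induced genotype comparison and -0.87 and -0.53 with OVA, and total counts gave 0.26 and, with OVA in WT, -0.74. No paired analysis was possible because the groups compared had 1 library each and so shared fewer than 2 replicate numbers, and an additive fit with condition as a block was left out, not impossible. The genotype ratios rest on 1 library each, and leaving a library out removes the comparison. Depth limits Ces1b, Ces1c and Ces1h, which had at most 49, 8 and 15 counts.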
